A study of Mus musculus with 6 samples.

Results

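Circular RNAs (circRNAs) of 7 host genes, Tulp4, Dym, Fto, Stag1, Tlk1, Hipk2 and Hipk3, were examined in mouse hippocampus. The members are all circRNAs in the deposited table whose list of host genes holds the Ensembl identifier of any of the 7 genes, which gave 49 of 10652 circRNAs. Of the 6 samples, 3 were from mice put through chronic unpredictable stress (CUS) and 3 were Control samples. All were adult male C57BL/6J mice bought at 8 to 10 weeks of age and assigned to groups at random, and the labels list no transgene, allele or drug in either group. CUS consisted of 4 weeks of randomly scheduled mild stressors, among them food or water deprivation, night lighting, wet bedding, cold swimming, tail nipping, restraint and cage tilting. The replicates are described as independent, but not as separate mice, and whether mice were pooled is not stated. The spread among the 3 samples of a group may therefore be technical. The exact permutation p-values below rest on these samples alone. The limma p-values and intervals rest on that spread only in part, since limma pools variance over all features tested. Per the labels' protocols, libraries were made from poly(A)-selected RNA, and rings carry no such tail.

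CircRNAs arise when a splice donor is joined back to an acceptor that lies upstream of it in the same transcript. They lack free ends, resist exonucleases, are abundant in neurons, and a single gene can give many different rings. The 7 hosts have unlike roles. Tulp4 is a tubby-like protein with a SOCS box, Dym encodes dymeclin, a protein of the Golgi, and Fto is an eraser of m6A, the methyl mark on adenosines in RNA. Stag1 is a subunit of cohesin, the complex that holds sister chromatids and chromatin loops together. Tlk1 is a tousled-like kinase acting on histone chaperones, and Hipk2 and Hipk3 are homeodomain-interacting protein kinases. CircRNAs named after Dym, Stag1 and Hipk2 are known from work on mood disorders or astrocytes, that of Tlk1 from stroke, and that of Hipk3 from many human cell types. The table was used without circRNA coordinates, so none of the circRNAs below was matched to a published one.

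A level below is 10 raised to the deposited value, a relative unit per circRNA on the authors' scale with no correction for length, and a circRNA without a value is listed at 0, which does not show that it is absent. The number of circRNAs above 0 was 3991 to 4273 in CUS libraries, against 4329 to 4606 in Control libraries. The levels of a library lay on multiples of an inferred step, and the inverse of that step is called relative depth here. It was 81.9% to 89.8% of the highest such value in CUS libraries, against 90.8% to 100% in Control libraries. Whether it reflects read depth is unknown. The lowest level above 0 was 17 steps in each of the 6 libraries, so a 0 can cover any level under 17 steps, and numbers of circRNAs above 0 are numbers above that limit. The number of reads behind a level is unknown, so no counting interval is given.

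Tulp4 (chromosome 17, 6106437 to 6251128) had 14 circRNAs, Stag1 (chromosome 9, 100597798 to 100959375) had 11 and Dym (chromosome 18, 75018781 to 75286964) had 7. Fto (chromosome 8, 91313525 to 91668439), Tlk1 (chromosome 2, 70712407 to 70825728) and Hipk2 (chromosome 6, 38694390 to 38876165) had 5 each, and Hipk3 (chromosome 2, 104426481 to 104494446) had 2. Gene positions are those of GENCODE vM21 on GRCm38. All 49 circRNAs were classed as exonic, against 89.4% of the whole table. Tulp4 stood high for its size. Its 14 circRNAs compare with a median of 2 over the 461 hosts with a length of 80% to 125% of its 145 kb, and 40 of 3772 hosts, Tulp4 included, had at least as many. Stag1 had 11 circRNAs against a median of 3 over 233 hosts of like length, and Dym had 7 against a median of 3 over 280. Hipk3 had 2, the same as the median over 651 hosts of like length.

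**Figure D1:**
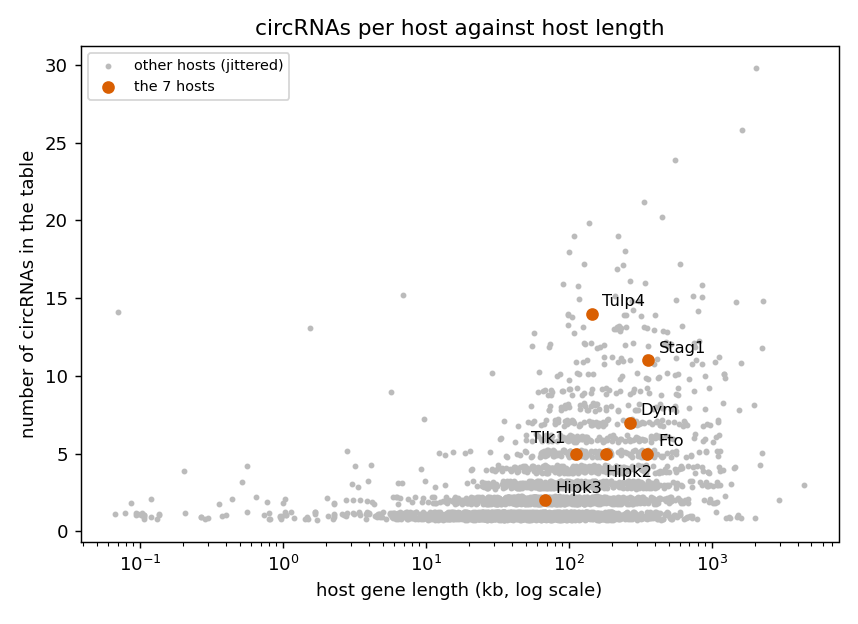
Number of circRNAs per host (vertical axis) against the length of the host gene in kb (horizontal log axis), with all other hosts in grey and slightly scattered in height. Tulp4 with 14 and Stag1 with 11 circRNAs lie above most hosts of their length, and Hipk3 with 2 lies among them.

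Most members were seen in few libraries. Of the 49, 14 were above 0 in 1 library, 11 in 2, 13 in 3, 1 in 4, 3 in 5 and 7 in all 6. The 25 members above 0 in 1 or 2 libraries made up 51.0%, against 63.4% of the whole table, and their levels where seen were between 73.7 and 1207. The other 24 members were tested. Of the 49, 9 members (18.4%) were listed at 0 in all Control libraries and 13 (26.5%) in all CUS libraries, against 23.4% and 27.0% of the whole table. In each case 7 of those members were seen in 1 library only.

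The Tulp4 circRNAs fall into 2 kinds by the identifiers they list. Of the 14, 8 also list the identifier of n-R5s26, a gene annotated as ribosomal RNA that lies within Tulp4 at chr17:6147419-6147540, on the same strand. It overlaps no annotated Tulp4 exon and sits in intron 1 of the Tulp4 transcript with the most exons, so its identifier divides the Tulp4 circRNAs into those that list it and those that do not. No other circRNA in the table lists it. What a further identifier means is not stated: whether these circRNAs span the gene is unknown, and the build named in the processing notes is mm9, while the gene's position here is that of GRCm38. Its 122 bases (GENCODE vM21, GRCm38, plus strand) are printed because its identifier defines the 2 kinds of Tulp4 circRNA compared further on. No base is in capitals, since no motif was searched.
n-R5s26: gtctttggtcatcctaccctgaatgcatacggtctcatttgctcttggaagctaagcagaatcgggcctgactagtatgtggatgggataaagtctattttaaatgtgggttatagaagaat

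The summed circRNA level of the 7 hosts did not separate CUS from Control. Together the 49 circRNAs summed to 10190 ± 1560 in CUS libraries, against 9991 ± 1489 in Control libraries (SD, n = 3 each). That was 0.508% of all circRNA level in CUS libraries and 0.490% in Control libraries. Fitted values were higher in CUS for 5 of the 7 host sums and lower for 2, where 47.8% of all 2227 hosts tested were higher and 52.2% lower. The groups were apart for 0 of the 7, against 5.66% of all hosts higher and 5.75% lower in CUS, 11.4% in either direction. In limma, 0 of the 7 passed at an adjusted p under 0.05 (lowest adjusted p = 0.918), and 0% of all hosts did. At an unadjusted p under 0.05 there were 0 of the 7, against 2.56% of all hosts higher and 3.14% lower in CUS, 5.7% in either direction. The median log2 difference was 0.12 over the 7 hosts and -0.06 over all hosts.

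The sum of the Tulp4 circRNAs was 3352, 3394 and 5912 in CUS libraries, against 4145, 4354 and 2907 in Control libraries. CUS replicate 3 was highest and Control replicate 3 lowest, so neither group was above the other. The mean was 4219 ± 1466 for CUS and 3802 ± 782 for Control (SD, n = 3 each), and the log2 difference of 0.12 had a 95% interval of -0.63 to 0.86. The Dym circRNAs summed to 1990, 1901 and 2354 in CUS libraries, against 2805, 1878 and 2181 in Control libraries, also with overlapping groups. Dym was the steadiest of the 7 between libraries, with a highest over lowest ratio of 1.49, and its log2 difference of -0.12 had a 95% interval of -1.04 to 0.80. The Tulp4 interval holds no change as large as 1 on the log2 scale in either direction, and the Dym interval holds none that large upward. Both intervals rest in part on variance pooled over all hosts tested, not on the spread of the host alone.

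The Stag1 circRNAs summed to 2291, 1748 and 663 in CUS libraries, against 1473, 1959 and 862 in Control libraries. The spread within each group was wider than the difference between the CUS mean of 1567 and the Control mean of 1431. The Tlk1 circRNAs summed to 1639, 519 and 1112 in CUS libraries, against 949, 305 and 1782 in Control libraries, again with wide and overlapping groups. The Fto circRNAs summed to 876, 460 and 1022 in CUS libraries, against 1434, 832 and 186 in Control libraries, a 7.70-fold range over the 6 libraries. The Fto mean was lower in CUS (786 against 817 in Control) while the fitted log2 difference was 0.24, so the sign of the Fto difference depended on the scale.

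The kinase genes Hipk2 and Hipk3 had the lowest mean sums of the 7 hosts, though at 352 and 191 these were close to the medians of 313 and 215 over hosts of like length. The Hipk2 circRNAs summed to 380, 88.8 and 0 in CUS libraries, against 109, 1127 and 407 in Control libraries, with CUS replicate 1 above Control replicate 1. The Hipk3 circRNAs summed to 590, 277 and 0 in CUS libraries, against 278, 0 and 0 in Control libraries, with a value in 3 of 6 libraries. The log2 difference was -1.66 for Hipk2 (95% interval -4.67 to 1.35) and 1.27 for Hipk3 (-1.48 to 4.01), each with an adjusted p of 0.918 in limma.

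**Figure D2:**
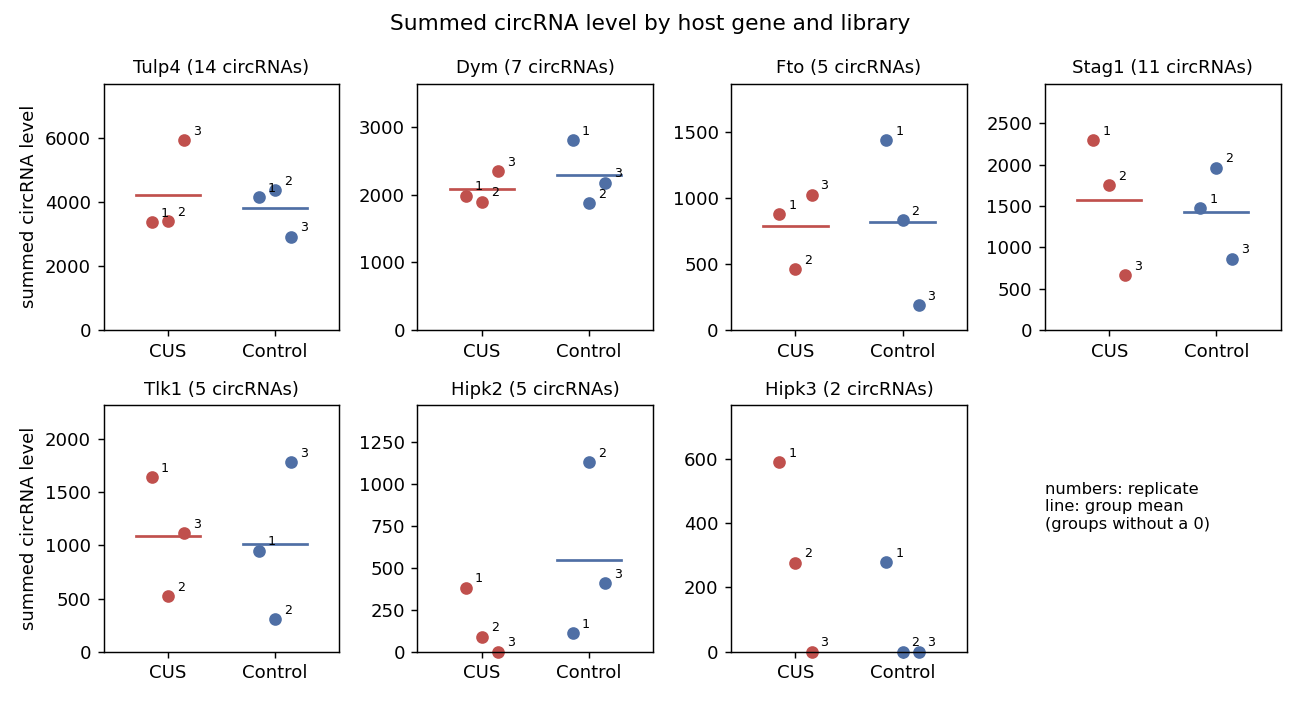
Summed circRNA level (vertical axis, relative units, starting at 0) of each of the 7 hosts in 3 CUS and 3 Control libraries, with points numbered by replicate and a line at the mean of each group that holds no 0. The groups overlap for every host, and Hipk2 and Hipk3 have libraries listed at 0.

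By mean sum over 6 libraries the order was Tulp4 (4011), Dym (2185), Stag1 (1499), Tlk1 (1051), Fto (802), Hipk2 (352) and Hipk3 (191). These are ranks 41, 170, 308, 488, 643, 1292 and 1914 of 3772 hosts. The order is one of deposited levels and is not corrected for circRNA length. Tulp4 ranked first among the 7 in all 6 libraries, and its lowest library (2907) was above the highest of Dym (2805). Each later pair of neighbours in the order overlapped in its library values. Among 919 or 920 other hosts above 0 in all 6 libraries, the host whose log2 pattern was most like that of Tulp4 was Zdhhc20 (r = 0.98), of Dym Tbck (0.92), of Fto Ubap2l (0.98) and of Stag1 Kansl1l (0.96). For Tlk1 it was Gm13557 (0.99), for Hipk2 Gm20445 (0.95) and for Hipk3 Phlpp1 (0.97). Each r is Pearson's, over 6 libraries, and describes the best of many hosts.

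Within Tulp4, the groups did not overlap in the mixture of circRNAs although they overlapped in the sum, and no test of the mixture passed its threshold. The 6 circRNAs that list Tulp4 alone summed to 563, 543 and 712 in CUS libraries, against 1246, 2118 and 1144 in Control libraries. Each CUS library was below each Control library, but this rests on 1 circRNA. With mmu_circRNA004507 left out, they summed to 563, 543 and 712 in CUS libraries, against 488, 1465 and 958 in Control libraries, and the groups overlapped. The 8 circRNAs that also list n-R5s26 summed to 2789, 2851 and 5200 in CUS libraries, against 2900, 2236 and 1764 in Control libraries, where the groups overlapped. They held 83.2%, 84.0% and 88.0% of the Tulp4 level in CUS libraries, against 69.9%, 51.4% and 60.7% in Control libraries. The mean share was 85.0% ± 2.55 for CUS and 60.7% ± 9.29 for Control (SD, n = 3 each), and the groups did not overlap.

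The difference in share was 24.4 percentage points, with an exact two-sided permutation p of 0.1, the smallest that 3 against 3 libraries allow, and an adjusted p of 1 over the 132 hosts with both kinds of circRNA. With mmu_circRNA004507 left out the difference was 14.8 points and the groups overlapped (exact two-sided permutation p = 0.3). Groups did not overlap for 3.79% of those 132 hosts, and Tulp4 ranked 32 of 132 by the size of the difference. Stag1 ranked 13 on the same measure, with a mean share of 43.3% ± 29.5 for CUS and 10.2% ± 7.24 for Control. The Stag1 groups overlapped (exact two-sided permutation p = 0.2). The sum of the circRNAs listing Tulp4 alone had a log2 difference of -1.20 (SE 0.67) in limma, with an adjusted p of 0.917, and of -0.52 with mmu_circRNA004507 left out. In that fit of 2151 hosts, 5.86% had an unadjusted p under 0.05, Tulp4 not among them, and 11.4% had groups apart. Tulp4 was singled out here after its values were seen.

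Fewer Tulp4 circRNAs were above 0 in CUS, with 5, 6 and 6 against 8, 8 and 10 in Control. The groups did not overlap (exact two-sided permutation p = 0.1, adjusted p = 1 over 3772 hosts). Over all hosts, 2.81% had groups apart, 1.72% with fewer in CUS, and among the 124 hosts with at least 10 circRNAs 4.03% did. CUS libraries held fewer circRNAs over the whole table too, and the part of relative depth in this count was not tested. Counting only circRNAs above 5 times the lowest level of the library gave 4, 6 and 4 in CUS libraries, against 6, 7 and 5 in Control libraries, with overlapping groups. For the other hosts the numbers above 0 overlapped. Stag1 had 3 to 4 in CUS libraries, against 2 to 7 in Control libraries, and Fto had 2 to 3 in CUS libraries, against 1 to 4 in Control libraries.

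**Figure D3:**
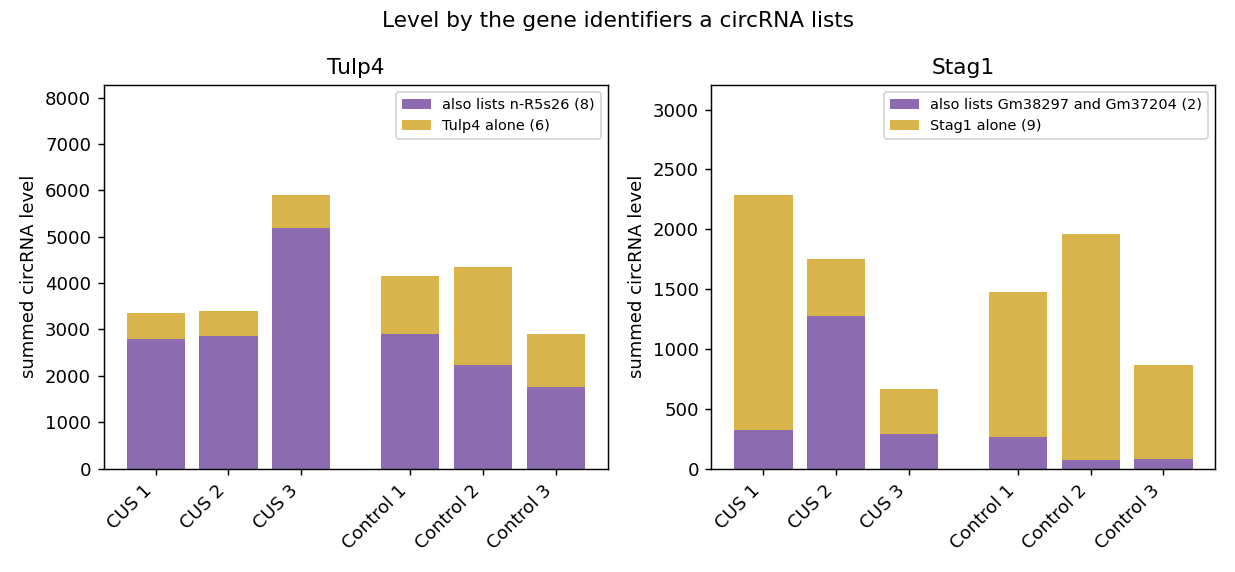
Summed circRNA level (vertical axis, relative units) of Tulp4 and Stag1 in each CUS and Control library, divided into circRNAs that list a further gene identifier and those that list the host alone, with their number in brackets. The part listing Tulp4 alone is between 543 and 712 in CUS and between 1144 and 2118 in Control. That separation rests on mmu_circRNA004507, listed at 0 in all CUS libraries. With it left out the groups overlap, at 543 to 712 in CUS and 488 to 1465 in Control. The part listing Stag1 alone is between 378 and 1972 in CUS and between 785 and 1886 in Control.

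The Tulp4 circRNA with the smallest p was of the kind that lists Tulp4 alone. mmu_circRNA004507 was listed at 0 in all 3 CUS libraries and was at 758, 653 and 186 in Control. It passed the filter through Control alone, which fixed that the groups could not overlap, so this and its p (the smallest of the 24 tested members, adjusted p = 0.577 in limma) are a description, and a fold is not given because CUS has no value above 0. mmu_circRNA004510, also of Tulp4 alone, was at 563, 304 and 0 in CUS libraries, against 273, 625 and 529 in Control libraries, with overlap. mmu_circRNA004513 and mmu_circRNA004522, of Tulp4 alone too, had fitted log2 differences of -1.08 and -0.69, with an adjusted p of 0.872 each.

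Among the circRNAs that also list n-R5s26, the leading one was mmu_circRNA004516, with 38.9% of the Tulp4 level over all libraries. It was at 2034, 347 and 3433 in CUS libraries, against 1415, 1442 and 681 in Control libraries. It was the highest Tulp4 circRNA in 5 of 6 libraries. In CUS replicate 2 it was low and mmu_circRNA004519 led at 1555. The share of mmu_circRNA004516 in the Tulp4 sum was 60.7%, 10.2% and 58.1% in CUS libraries, against 34.1%, 33.1% and 23.4% in Control libraries, with overlap (exact permutation p = 0.4). For the 5 hosts whose leading share could be tested, 0 had groups apart, against 9.71% of 834 hosts. mmu_circRNA004509 was at 118, 425 and 968 in CUS libraries, against 79.7, 187 and 90.4 in Control libraries, a log2 difference of 1.43 (SE 1.20). mmu_circRNA004518 was at 0, 524 and 625 in CUS libraries, against 316, 0 and 0 in Control libraries. None of these differences passed, with adjusted p-values of 0.872 to 0.960. The 6 Tulp4 members that were not tested had levels of 77.3 to 538 where seen.

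Summed circRNA levels of marker genes of hippocampal cell types are given beside this result. The CA pyramidal hosts (3 of 7 listed had a circRNA) summed to 2751 to 3210 in CUS libraries, against 3942 to 7006 in Control libraries, and the groups did not overlap. Most of that level was Tenm3, at 2084, 2676 and 2177 in CUS libraries, against 3942, 3926 and 6936 in Control libraries, while Grik4 was at 522, 67.3 and 652 in CUS libraries, against 0, 197 and 69.2 in Control libraries. Cpne4 was at 144, 272 and 381 in CUS, with Control listed at 0, so it passed the filter through CUS alone. The astrocyte hosts (4 of 8) summed to 1710 to 2642 in CUS libraries, against 1085 to 1525 in Control libraries, also apart, though Gpc5 among them was lower in each CUS library (348, 296 and 179) than in any Control library (377, 1056 and 801). Groups were apart for 11.4% of all single hosts tested, and no such share was computed for sums of lists. The sums of the other neuronal and glial lists overlapped. Oligodendrocyte hosts (5 of 8) summed to 2039 to 2989 in CUS libraries, against 1374 to 2040 in Control libraries. Dentate granule hosts (5 of 6) summed to 5882 to 8511 in CUS libraries, against 2772 to 8595 in Control libraries, and interneuron hosts (3 of 8) to 1702 to 4887 in CUS libraries, against 910 to 2927 in Control libraries. Vascular and choroid hosts (2 of 5) reached 772 in CUS libraries, against 535 in Control libraries, and of neighbouring tissue (1 of 5) only Tcf7l2 had a circRNA, at 277 in CUS replicate 1. Of the 18 marker hosts tested, 4 had an unadjusted p under 0.05, against 5.7% of all hosts tested, and 0 passed at an adjusted p under 0.05 in limma. They were Tenm3, Cpne4, Adarb2 and the dentate granule host Rfx3. Of the 56 hosts of the whole table that passed the filter through 1 group, as Cpne4 did, 54 had such a p. Among the other 2171 hosts tested 3.36% did. Rfx3 was at 4395, 2910 and 3158 in CUS libraries, against 1195, 1788 and 1426 in Control libraries. Its groups were apart, as were those of 11.4% of all hosts tested. Cntnap5a of the same list went the other way, with a fitted log2 difference of -1.26. It was at 1798, 169 and 446 in CUS libraries, against 973, 2582 and 947 in Control libraries, with overlap. Glis3 and Dock10 had fitted log2 differences of 0.65 and 0.77, with overlap. Adarb2, of interneurons, was at 3270, 3147 and 1210 in CUS libraries, against 681, 1828 and 644 in Control libraries, with overlap. Erbb4 and Kcnmb2 of that list had fitted log2 differences of 0.09 and -0.15. No microglial host of 6 had a circRNA, and Gfap, Aqp4, Mog, Gad1, Gad2, Calb1 and Wfs1 had none either, so circRNA hosts test the tissue label only in part. The part of cell composition in the Tulp4 values was not tested, and fewer cells of a type and less RNA per cell cannot be told apart in these samples.

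The Dym circRNAs were led by mmu_circRNA005254, with 56.5% of the Dym level. It was at 551, 1076 and 1476 in CUS libraries, against 1818, 963 and 1527 in Control libraries. It led in 5 of 6 libraries, and the groups overlapped, with a mean of 1034 ± 464 for CUS and 1436 ± 435 for Control (SD, n = 3 each). The log2 difference was -0.51 (SE 0.63). Its share was 27.7%, 56.6% and 62.7% in CUS libraries, against 64.8%, 51.3% and 70.0% in Control libraries (exact permutation p = 0.4). In CUS replicate 1, where its share was lowest, mmu_circRNA005253 led at 979, against 0 and 0 in the other CUS libraries and 140, 0 and 120 in Control.

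The other Dym circRNAs were lower. mmu_circRNA005251, above 0 in all libraries, was at 103, 167 and 174 in CUS libraries, against 468, 567 and 104 in Control libraries. Control replicates 1 and 2 were high and Control replicate 3 was among the CUS values. mmu_circRNA005249 was at 82.5, 339 and 0 in CUS libraries, against 254 to 287 in Control libraries. mmu_circRNA005255 was at 0, 320 and 166 in CUS libraries, against 0, 0 and 152 in Control libraries. The 6 tested Dym circRNAs had fitted values higher in CUS for 2 and lower for 4, and the only untested one, mmu_circRNA005256, was at 538 in CUS replicate 3 alone.

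The Fto circRNAs had no constant leader, and 5 different ones were highest in some library. mmu_circRNA010202, with 36.8% of the Fto level, was the only one above 0 in all libraries. It was at 551, 210 and 275 in CUS libraries, against 155, 393 and 186 in Control libraries, with overlap and a log2 difference of 0.42 (SE 1.08). In Control replicate 3 it was the only Fto circRNA listed. mmu_circRNA010203 was at 0, 250 and 296 in CUS libraries, against 449, 0 and 0 in Control libraries. mmu_circRNA010198 was at 324, 0 and 0 in CUS libraries, against 128, 439 and 0 in Control libraries. All 3 had adjusted p-values of 0.872 to 0.912.

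The Stag1 circRNAs were mostly seen in 1 or 2 libraries, 9 of 11. The exception above 0 everywhere was mmu_circRNA010857, which also lists Gm38297 and Gm37204, a pair of genes that lie in intron 1 of a Stag1 transcript and whose annotation awaits experimental evidence. It was at 318, 898 and 285 in CUS libraries, against 266, 73.1 and 77.1 in Control libraries, and the groups did not overlap, though CUS replicate 3 and Control replicate 1 were close. Groups were apart for 10.9% of all circRNAs tested, and for 6.87% of those that did not pass the filter through 1 group. The log2 difference of mmu_circRNA010857 was 1.55 (SE 1.15), with an adjusted p of 0.872 in limma. Its share of the Stag1 level was 13.9%, 51.4% and 43.0% in CUS libraries, against 18.0%, 3.73% and 8.95% in Control libraries (exact permutation p = 0.2).

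Much of the Stag1 level came from circRNAs of single libraries or pairs. mmu_circRNA010861, the other tested one, was at 640, 0 and 0 in CUS libraries, against 0, 338 and 540 in Control libraries. mmu_circRNA010860 was listed at 0 in CUS and was at 1207, 587 and 0 in Control. mmu_circRNA010865 was at 1179 in CUS replicate 1 alone. mmu_circRNA010858 was at 153, 473 and 0 in CUS with no value above 0 in Control. The circRNAs listing Stag1 alone summed to 1972, 473 and 378 in CUS libraries, against 1207, 1886 and 785 in Control libraries, with overlap.

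**Figure D4:**
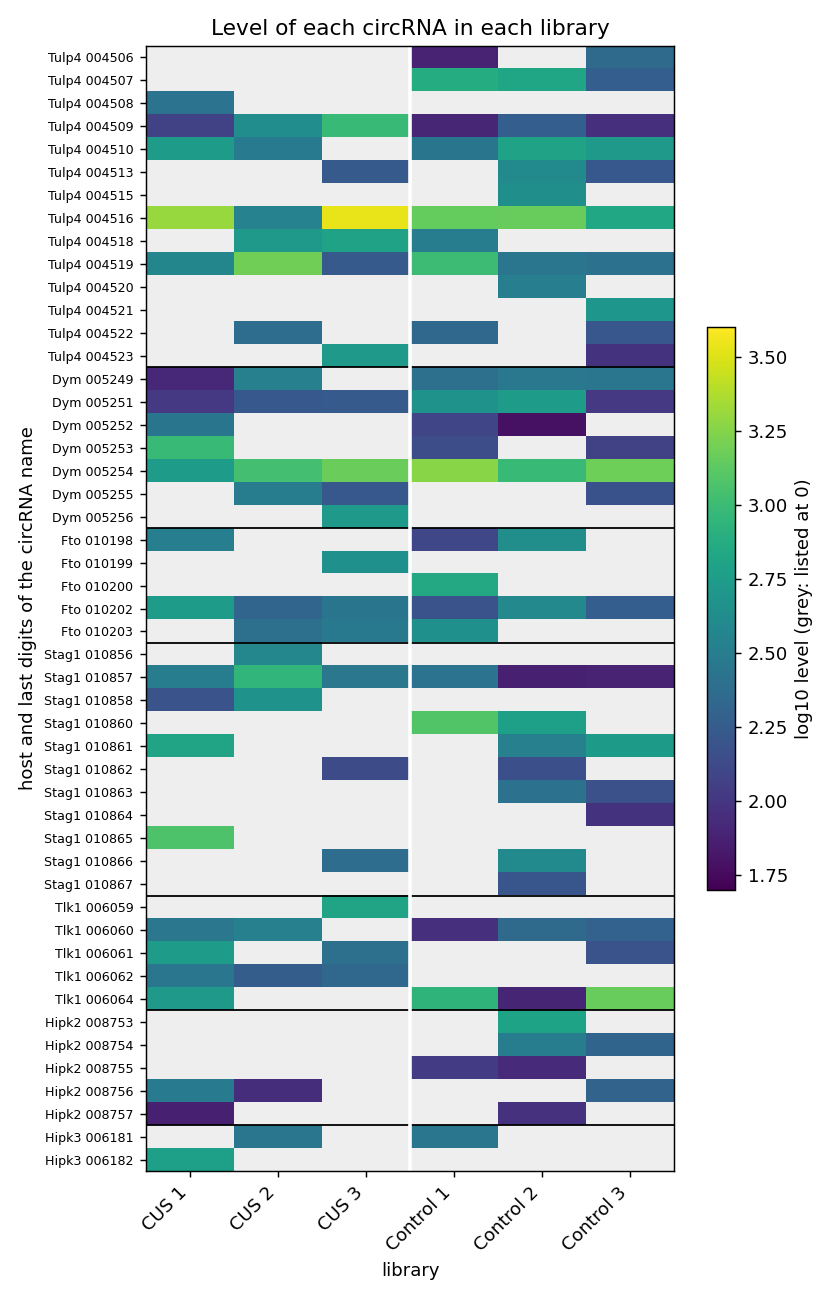
Level of each of the 49 circRNAs (rows, by host) in 3 CUS and 3 Control libraries (columns), as colour on a log10 scale with grey for a circRNA listed at 0. The 7 circRNAs above 0 in all libraries are 3 of Tulp4, 2 of Dym and 1 each of Fto and Stag1.

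The Tlk1 circRNAs of smallest p, mmu_circRNA006062 and mmu_circRNA006064, had fitted differences of opposite sign, and neither passed the adjusted threshold. mmu_circRNA006062 was at 277, 183 and 220 in CUS, whereas all 3 Control libraries were listed at 0 (adjusted p = 0.577 in limma). It passed the filter through CUS alone, which fixed that the groups could not overlap. mmu_circRNA006064, with 45.8% of the Tlk1 level, was at 522, 0 and 0 in CUS libraries, against 857, 78.2 and 1431 in Control libraries. CUS replicate 1 lay between the Control values, so these groups overlapped, with a log2 difference of -2.38 (SE 1.37) and an adjusted p of 0.872 in limma. The share of mmu_circRNA006064 was 31.8%, 0% and 0% in CUS libraries, against 90.3%, 25.6% and 80.3% in Control libraries (exact permutation p = 0.2). With the Tlk1 circRNA above 0 in most libraries, mmu_circRNA006060, taken as the leading one instead, the difference in share was -4.35 points in place of -54.8 (exact permutation p = 0.7). mmu_circRNA006061 was at 557, 0 and 250 in CUS libraries, against 0, 0 and 154 in Control libraries. mmu_circRNA006060 was at 283, 336 and 0 in CUS libraries, against 91.7, 227 and 197 in Control libraries.

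The Hipk2 circRNAs were sparse, with 4 of 5 above 0 in 1 or 2 libraries. The tested one, mmu_circRNA008756, was at 307, 88.8 and 0 in CUS libraries, against 0, 0 and 202 in Control libraries. mmu_circRNA008753 (635 in Control replicate 2), mmu_circRNA008754 (313 and 205 in Control replicates 2 and 3) and mmu_circRNA008755 (109 and 85.7 in Control replicates 1 and 2) were each listed at 0 in CUS. For Hipk3, mmu_circRNA006181 was at 277 in CUS replicate 2 and 278 in Control replicate 1, and mmu_circRNA006182 was at 590 in CUS replicate 1. Neither was seen in more than 2 libraries, so neither was tested.

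Over all hosts, 12 of the 24 tested members had a fitted value above 0 (higher in CUS) while the other 12 were below 0, where 47.2% of the 3896 circRNAs tested were higher and 52.8% lower. In limma 0 of 24 passed at an adjusted p under 0.05, and 0% of all circRNAs did. At an unadjusted p under 0.05 there were 2 of 24 (8.33%), against 6.01% of all circRNAs tested. They were mmu_circRNA006062, higher in CUS (2.75% of all were), and mmu_circRNA004507, lower in CUS (3.26% of all were). Both had passed the filter through 1 group, and each of the 167 circRNAs of the whole table that did so had an unadjusted p under 0.05. Among the other 22 members there were 0, against 67 of the other 3729 circRNAs. Groups did not overlap for 3 of 24 (12.5%), against 10.9% of all. Of these, 2 were higher in CUS (5.78% of all were) and 1 was lower (5.08% of all were). Leaving out those that passed through 1 group, 1 of 22 members (4.55%) had groups apart, against 6.87% of the other circRNAs. The median log2 difference was 0.03 over the 24 members and -0.12 over all circRNAs tested.

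**Figure D5:**
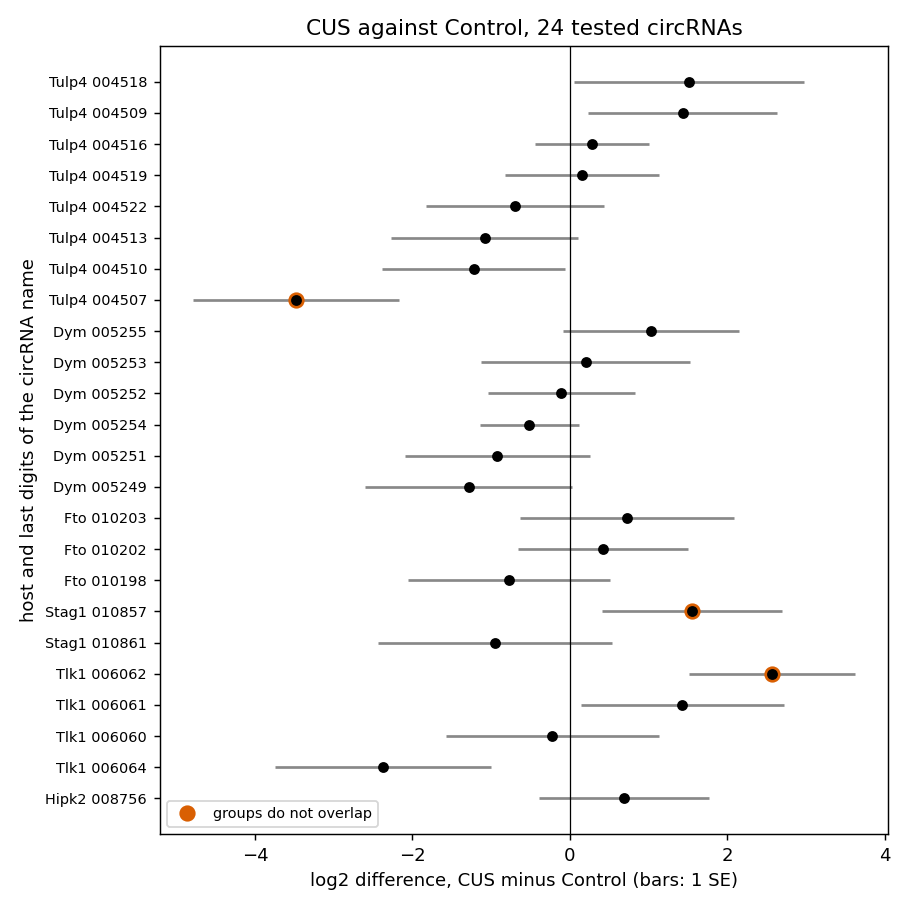
Log2 difference of CUS minus Control (horizontal axis, bars of 1 SE) for the 24 tested circRNAs, grouped by host, with an orange ring where the groups do not overlap. The rings mark mmu_circRNA004507 of Tulp4 on the lower side and mmu_circRNA006062 of Tlk1 and mmu_circRNA010857 of Stag1 on the higher side, of which mmu_circRNA004507 and mmu_circRNA006062 passed the filter through 1 group alone.

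Relatives and partners of the 7 hosts were examined as host sums. Of 14 cohesin genes other than Stag1, 9 had circRNAs and 5 were tested, and fitted values were higher in CUS for 2 and lower for 3. Ctcf, the insulator protein that works with cohesin, was at 613, 328 and 902 in CUS libraries, against 0, 262 and 0 in Control libraries. Its groups were apart, as were those of 11.4% of all hosts tested (adjusted p = 0.918 in limma). Wapl, which releases cohesin from chromatin, was at 339, 998 and 1128 in CUS libraries, against 1002, 809 and 0 in Control libraries. Of 21 m6A genes other than Fto, 5 had a circRNA and 2 were tested. Mettl16, an m6A methyltransferase, was at 0, 0 and 81.5 in CUS libraries, against 0, 219 and 170 in Control libraries, and Zc3h13, a subunit of the writer complex, at 890, 253 and 54.4 in CUS libraries, against 0, 789 and 0 in Control libraries.

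Among HIPK and DYRK kinases, 3 of 7 had circRNAs. Dyrk1a was at 1669, 1111 and 1533 in CUS libraries, against 1222, 1296 and 2032 in Control libraries over 11 circRNAs, and Hipk1 at 0, 183 and 0 in CUS libraries, against 0, 78.2 and 90.4 in Control libraries. Tlk2, the paralog of Tlk1, was at 560, 920 and 454 in CUS libraries, against 729, 1311 and 136 in Control libraries, and Dynll2 was at 845 in CUS replicate 3 alone. Of the tubby family only Tub had a circRNA, at 863 in CUS replicate 2 alone. Of 11 further hosts known from circRNA work, 9 had circRNAs and 6 were tested, and fitted values were higher in CUS for 4 and lower for 2. Hecw2, a ubiquitin ligase gene, was at 917, 2859 and 3202 in CUS libraries, against 2414, 2093 and 162 in Control libraries, and Homer1, a postsynaptic scaffold gene, at 914, 1337 and 1006 in CUS libraries, against 802, 197 and 596 in Control libraries. The Homer1 groups did not overlap (adjusted p = 0.918 in limma), which was also so for 11.4% of all hosts tested. In these lists of relatives and partners 0 of 16 tested hosts had an unadjusted p under 0.05, against 5.7% of all hosts tested.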

How the data were processed

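Levels of circRNAs were measured by paired-end RNA sequencing in 3 CUS and 3 Control hippocampal samples. The authors deposited log10 values in 1 table, 1 column per library, with 0 where no level is listed. That the base is 10 was read from the values, not from a header. Per the submitters' processing notes, mm9, StringTie, DESeq and edgeR were used in roles not stated. The tool that called circRNAs was not given in the sources used here. After 10 was raised to each deposited value, levels lay on whole multiples of a step per library (100% of values under 300 steps within 0.05 of a whole number), the pattern that counts scaled by a factor per library would leave. No source used here states such a step or what 1 step stands for.

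Host symbols came from GENCODE vM21 (4467 of 4483 identifiers matched). Of 786 circRNAs with several hosts, 583 were counted under the single protein-coding gene they list, and the host sums omit 203. The model was limma 3.58.1 (R 4.3.3, eBayes with a trend) on log2(level + 45.5), the pseudocount being the median of the libraries' lowest levels. The eBayes step pools variance over the features tested, so limma p-values and intervals do not rest on the spread of a feature alone. Fold changes on that scale understate the change of low circRNAs. Features above 0 in at least 3 of 6 libraries were tested, with Benjamini-Hochberg adjustment over all of them. The code was tested on simulated data. Shares and numbers were compared with exact permutation tests. Named were all 7 hosts, each host's leading circRNA and up to 4 tested circRNAs of smallest p, the most similar host, and 2 hosts of smallest p per list; others named were chosen after their values were seen. The members and lists were chosen with earlier results of these data known. Exact tests were run with scipy 1.17.1 and figures drawn with matplotlib 3.10.9 under Python 3.11.15.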

Additional observations from a re-analysis of the deposited data

How the results depend on the processing

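No circRNA or host passed the adjusted threshold in limma under any alternative run, and the adjusted p of the 7 host sums and 19 named circRNAs ran from 0.329 to 1.00. Counts at an unadjusted p under 0.05 were 234 circRNAs and 127 hosts, and 32 and 53 among those above 0 in all 6 libraries, where fewer features were tested. With the circRNAs that list a further gene left out, the log2 difference was -1.20 for Tulp4 and -0.73 for Stag1, against 0.12 and 0.04 with them. On levels in steps, which take out the inferred factor per library, they were -0.018 and -0.10, where the median over all hosts shifted by -0.11. Leaving out 1 library gave ranges of -0.15 to 0.26 for Tulp4 (below 0 without CUS or Control replicate 3), -0.25 to 0.034 for Dym (above 0 without Control replicate 1) and -0.52 to 0.81 for Fto (below 0 without Control replicate 3). The ranges were -0.32 to 0.55 for Stag1 (below 0 without CUS replicate 1 or 2 or Control replicate 3) and -0.38 to 0.81 for Tlk1 (below 0 without CUS replicate 1 or Control replicate 2). Hipk2 stayed below 0 (-2.47 to -0.86) and Hipk3 above 0 (0.47 to 2.37). Among single circRNAs the ranges crossed 0 for mmu_circRNA004516 (-0.37 to 1.21), mmu_circRNA010198 (-1.78 to 0.042), mmu_circRNA006060 (-0.77 to 0.76, and 0.030 with 5 times the pseudocount) and mmu_circRNA008756 (-0.034 to 1.505). Others kept their sign but moved by over 1.5 times, such as mmu_circRNA005254 (-0.81 to -0.14), mmu_circRNA010202 (0.07 to 0.76), mmu_circRNA004509 (0.81 to 2.13) and the leading shares of Tulp4 (3.92 to 29.2 points) and Dym (-19.9 to -2.39 points). The leading share of Fto ran from -28.5 to 16.1 points, and the number of Stag1 circRNAs above 0 differed by -2.17 to 0.33, and by 0.33 above 5 times the lowest level. In leave-one-out settings added after seeing the data, the share of Tulp4 circRNAs that also list n-R5s26 stayed higher in CUS by 19.7 to 29.0 points, and the sum of those listing Tulp4 alone had log2 differences of -1.37 to -0.94. Each of these leave-one-out settings kept mmu_circRNA004507, which is listed at 0 in all CUS libraries. With mmu_circRNA004507 left out, also added after seeing the data, the values were 14.8 points and -0.52. The groups then overlapped in both the share and the sum. The Tlk1 leading share differed by -4.35 points with the circRNA above 0 in most libraries as leader, against -54.8. The causes were not tested. No pairing by replicate number was seen (correlations of same-numbered deviations of -0.01, -0.03 and -0.02), which does not show that the samples were unpaired. In limma the replicate block called 0 circRNAs and 0 hosts, with 215 and 126 at an unadjusted p under 0.05. Leading shares were not tested for Hipk2 and Hipk3, whose sum was 0 in a library, and the setting of values in all 6 libraries gave none for features with a 0. The unknown read depth limits values near the lowest level.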
